A study of Mus musculus with 12 samples.

Results

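The glycolysis and pentose phosphate genes are 34 mouse genes of glucose and lactate transport, glycolysis, pyruvate entry into mitochondria and the pentose phosphate pathway. They were chosen by gene symbol among the 53656 gene symbols counted. All 34 were in the count tables, and all 34 were among the 13383 genes abundant enough to be tested. RNA was measured in immature thymocytes sorted from the mouse thymus in 12 libraries, 3 in each of 4 groups. All mice carry floxed copies of both Zfp148 and Zfp281, genes of zinc finger transcription factors that bind GC-rich DNA. In the double knockout (dKO), Cre recombinase under the Cd4 promoter deletes the floxed parts in developing T cells from the double-positive stage on. The control is labelled as negative for Cd4-Cre, apart from libraries described below. The ImCD4 gate took CD44low, H2-Kb negative, CD69+ cells that carry CD4 and lack CD8. The ImCD8 gate took CD44low, TCRb+, CD69+ cells that carry CD8 and lack CD4.

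The 4 groups, control and dKO of each gate, follow the library titles. Title and genotype label are opposite in 6 libraries, those of ImCD8: the libraries titled control are marked Cd4-Cre+ and those titled dKO are marked Cd4-Cre negative. Zfp148 averaged 180.2 and 66.5 CPM (counts scaled to library size) in control and dKO ImCD4 and 165 and 54.9 CPM in control and dKO ImCD8. Zfp281 averaged 486 and 18.6 CPM in ImCD4 and 119 and 12.8 CPM in ImCD8. Both genes thus go with the titles in ImCD8, on which all ImCD8 directions below rest. The ImCD4 controls are labelled as lacking Cre, so that an effect of Cre cannot be told apart there from the loss of the floxed genes. The titles give no Cre status. The same limit holds in ImCD8 if its genotype labels were exchanged between control and dKO. The labels used here give no age and no number of animals.

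Libraries held 7315833 to 10943143 counts in genes, and the 34 genes together took 0.675% to 0.915% of them. The gates matched their markers: Cd4, Zbtb7b and Cd40lg summed to 1594 to 1911 CPM in ImCD4 and to 4.68 to 19.9 CPM in ImCD8, while Cd8a, Cd8b1, Runx3 and Itgae summed to 121 to 295 CPM in ImCD4 and 4514 to 4792 CPM in ImCD8. The replicate 3 library of each group, 4 libraries in all, stood apart from the others on the third principal component, which carried 5.31% of the variance. The ImCD4 groups differed without overlap in counts in genes, 8276742 to 9173424 in control and 9319732 to 10943143 in dKO, in reads outside any gene, 13.6% to 16.4% and 10.5% to 12.9%, and in reads ambiguous between genes, 5.37% to 5.46% and 5.55% to 5.67%. Mitochondrial genes took 1.07% to 1.31% of gene counts in control and 0.633% to 0.961% in dKO ImCD4, also without overlap. The part of these differences in the ImCD4 results was not tested. Whether the 3 libraries of a group stem from different animals is not stated in the labels, and the p-values then measure only how far the libraries of a group spread, in part perhaps for technical reasons.

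Glycolysis splits glucose into pyruvate and yields ATP. Glucose enters the cell through transporters of the GLUT family, hexokinase traps it as glucose 6-phosphate, and phosphofructokinase is the committed and most regulated step. Pyruvate is either reduced to lactate, which leaves through monocarboxylate transporters, or carried into mitochondria, where the pyruvate dehydrogenase complex turns it into acetyl-CoA. The pentose phosphate pathway branches from glucose 6-phosphate and supplies NADPH and the ribose of nucleotides. Thymocytes use these pathways most at stages of growth and division, and several steps have more than 1 isozyme gene in T cells.

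The genes with the most transcript per kilobase of annotated exon encode enzymes of lower glycolysis and of lactate formation. In control ImCD4, Eno1 (enolase) reached 354 ± 8.54 CPM per kb (SD, n = 3, as for all levels here) and Ldha, a lactate dehydrogenase subunit, 330 ± 18.3 CPM per kb, and the libraries of both overlapped. Pkm, the pyruvate kinase of most tissues, followed at 219 ± 8.16 CPM per kb. Gapdh, which encodes the dehydrogenase that opens the lower part of the pathway, stood at 186 ± 12.1 CPM per kb and Ldhb, the other lactate dehydrogenase subunit, at 182 ± 19.7 CPM per kb, again with overlapping libraries. At the other end were the lactate exporter gene Slc16a3 at 0.925 ± 0.186 CPM per kb, the inducible hexokinase gene Hk2 at 0.404 ± 0.0278 CPM per kb and the brain aldolase gene Aldoc at 0.180 ± 0.140 CPM per kb. In control ImCD8 the order at the top was Ldha with 338 ± 20.8 CPM per kb, then Eno1 with 252 ± 18.9 CPM per kb without overlap. That order depends on the length used: without division by length, Eno1 was higher, at 1354 ± 102 CPM beside 1117 ± 68.9 CPM for Ldha.

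**Figure D1:**
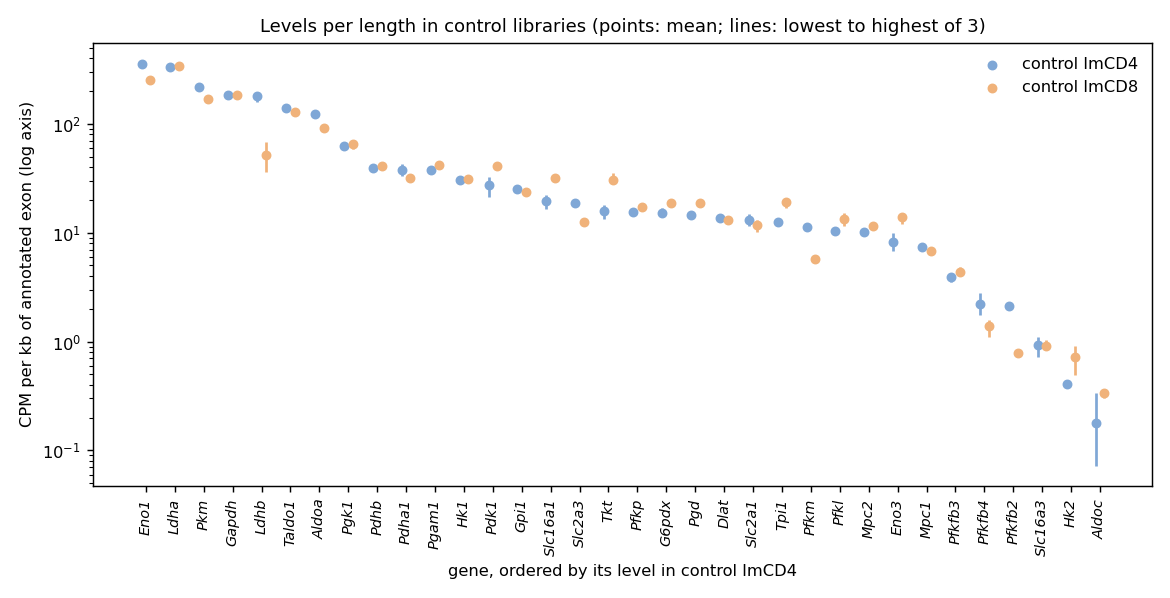
Level of each gene per kilobase of annotated exon in the control libraries, on a log axis, ordered by the mean of control ImCD4. Points are means of 3 libraries and lines run from the lowest to the highest. Lengths join all annotated exons of a gene. The genes span from 354 CPM per kb for Eno1 to 0.180 CPM per kb for Aldoc in ImCD4, and Ldhb stands apart between the populations.

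Loss of both factors changed 12 of the 34 genes in ImCD4, 9 upward (Gpi1, Pfkl, Pfkfb3, Aldoa, Pgk1, Eno1, Ldha, Pdha1 and G6pdx) and 3 downward (Slc2a3, Pfkm and Pkm), at an adjusted p below 0.05 in edgeR's quasi-likelihood test. Of all tested genes, 13.4% passed that threshold, 7.26% upward and 6.16% downward. The 34 genes and the lists used below were chosen with earlier results of these data known. The part of that choice in the shares called was not tested. In ImCD8, 7 of the 34 passed, 2 upward (Aldoa and Eno1) and 5 downward (Slc2a3, Pfkm, Gapdh, Eno3 and Pkm), where 6.14% of all tested genes passed, 2.62% upward and 3.53% downward. The median log2 fold change of the 34 was 0.11 in ImCD4 and 0.03 in ImCD8, beside 0.02 and 0.01 over all tested genes. In both populations Aldoa and Eno1 were higher in dKO, as were 1.42% of all tested genes, and Slc2a3, Pfkm and Pkm were lower, as were 2.24% of all tested genes. None of the 34 passed in opposite directions, as did 0.0523% of all tested genes. The contrasts in ImCD4 and ImCD8 compare different libraries, but both come from 1 fit of all 12 libraries with a shared estimate of the spread. Their p-values are thus not independent. The difference between the dKO effects was itself tested, and 1 of the 34 genes, Slc2a3, passed, beside 0.433% of all tested genes.

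The summed level of 18 cell cycle markers moved with the groups: it was 699 to 747 CPM in control ImCD4 and 847 to 880 CPM in dKO ImCD4, and 2002 to 2360 CPM in control ImCD8 and 1737 to 1973 CPM in dKO ImCD8. All 18 were tested, and 4 were called higher in ImCD4, 22.2% beside 13.4% of all tested genes. In ImCD8 1 was called lower, 5.56% beside 6.14%. The log2 fold change was above 0 for 18 in ImCD4 and for 1 in ImCD8. The 3 gamma-delta markers (Trdc, Tcrg-C1 and Sox13) summed to 29.1 to 31.9 CPM in control ImCD4 and 192 to 302 CPM in dKO ImCD4, and to 14.9 to 16.3 CPM in control ImCD8 and 18.0 to 21.7 CPM in dKO ImCD8. All 3 were tested, with 2 calls in ImCD4 and 0 in ImCD8. In ImCD8 the 5 markers of NK and innate-like cells summed to 630 to 766 CPM in the control group and 355 to 615 CPM in the dKO group, with Ncr1 at 0 in every library, and the 6 thymic epithelium markers to 93.3 to 98.6 CPM and 107 to 119 CPM. Of each of these 2 lists 2 markers were tested, with 0 calls in ImCD8 for the NK list and 1 for the epithelium list. Of the double-positive thymocyte markers, Rag1, Rag2, Dntt and Ptcra summed to 44.2 to 63.8 CPM in control ImCD4, against 79.8 to 99.8 CPM in dKO ImCD4, and to 36.0 to 59.3 and 91.4 to 126 CPM in the ImCD8 groups. Of the B cell markers, Cd79a, Cd79b, Ms4a1 and Pax5 summed to 3.07 to 5.19 CPM in control ImCD4, against 5.67 to 7.75 CPM in dKO ImCD4, and to 11.1 to 14.0 and 22.5 to 36.7 CPM in ImCD8. For both sums the dKO libraries lay above the control libraries, without overlap, in each population. The tested markers of the 2 full lists did not all go with the sums. Of the 5 double-positive markers 4 were tested, and 4 had a log2 fold change above 0 in ImCD4 and 2 in ImCD8, with 1 call in each. Of the 5 B cell markers 2 were tested, and 1 was above 0 in each population, with 1 call, in ImCD8. The 4 T cell markers summed to 3379 to 3736 CPM in control ImCD4, against 3785 to 3883 CPM in dKO ImCD4, and overlapped in ImCD8 at 4024 to 4873 CPM. All 4 were tested, with 1 call in ImCD4 and 0 in ImCD8. The 7 myeloid and dendritic markers, at 66.7 to 93.6 CPM over the 12 libraries, and the 8 erythroid and platelet markers, at 0.212 to 21.1 CPM, overlapped between genotypes in both populations. The part of these in the results below was not tested. In sorted bulk samples such as these, fewer cells of a type and less RNA per cell cannot be told apart.

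**Figure D2:**
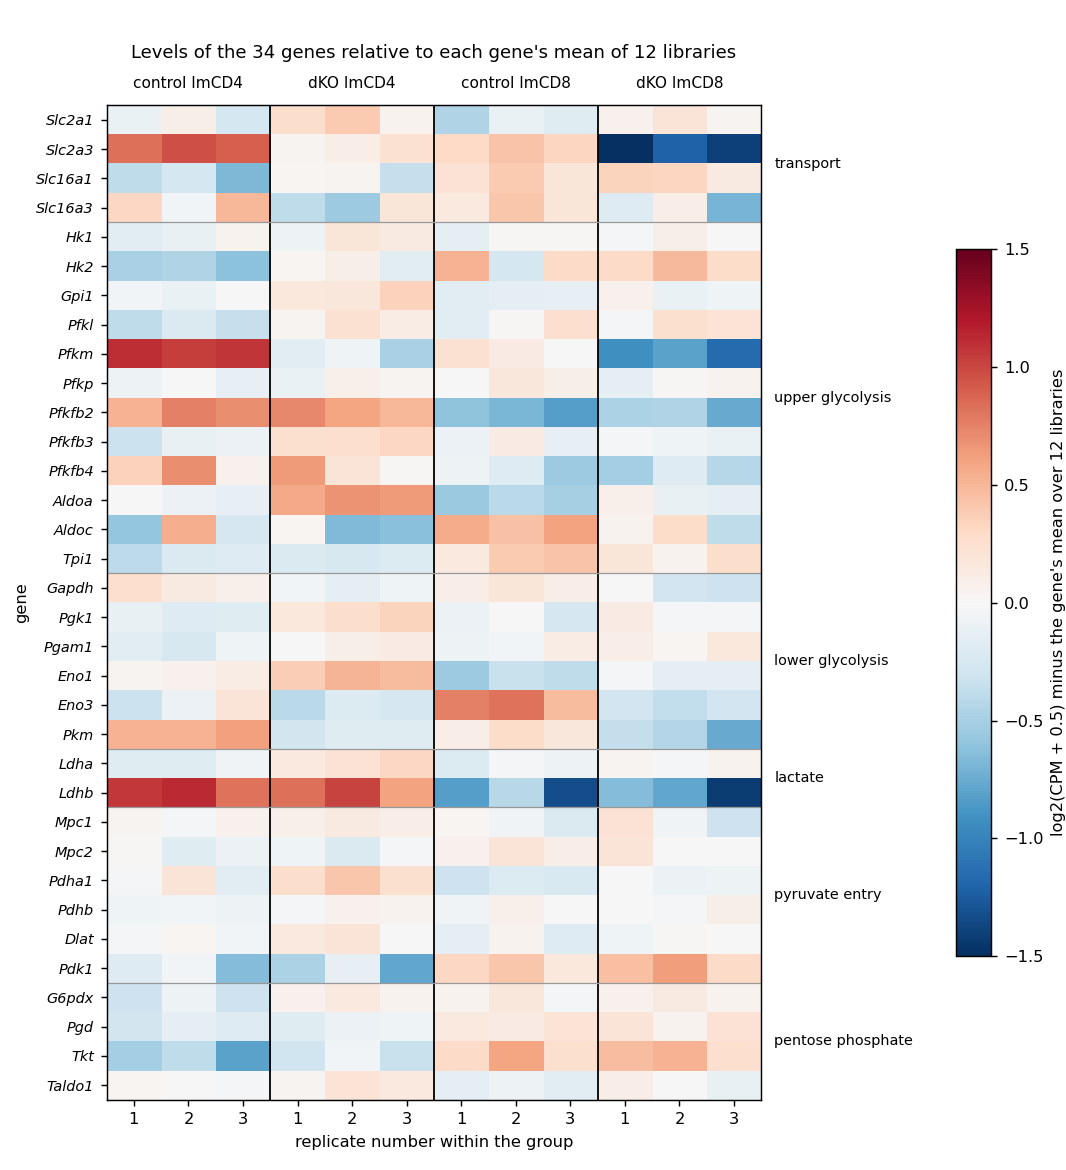
Level of each gene in each of the 12 libraries as log2(CPM + 0.5) minus the mean of that gene over all libraries, ordered by role. Red is higher and blue lower. Slc2a3, Pfkm and Ldhb show the widest spread, and Slc2a3 is lowest in the 3 dKO ImCD8 libraries.

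In the transport group, Slc2a3 fell in both populations and fell more in ImCD8. Slc2a3 encodes GLUT3, a high-affinity glucose transporter, and lies on chromosome 6 from 122727809 to 122801640 on the minus strand (ENSMUSG00000003153.10, mm10). It stood at 128, 141 and 134 CPM in the control ImCD4 libraries and at 73.7, 76.8 and 83.9 CPM in the dKO ImCD4 libraries. In ImCD8 it stood at 88.3, 96.8 and 90.3 CPM in control and at 25.1, 30.7 and 26.9 CPM in dKO. Neither pair of groups overlapped, and the dKO ImCD8 libraries were the lowest of all 12. The log2 fold changes were -0.78 ± 0.08 in ImCD4 (SE, as for all fold changes here) and -1.73 ± 0.09 in ImCD8, with edgeR adjusted p = 1.05e-05 and 5.64e-09. The effect in ImCD8 exceeded that in ImCD4 by -0.94 ± 0.12 on the log2 scale (edgeR adjusted p = 0.00143).

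Slc2a1, which encodes GLUT1, the transporter induced on T cell activation, averaged 46.3 ± 5.75 CPM in control and 58.2 ± 6.85 CPM in dKO ImCD4, and 41.5 ± 5.07 and 52.5 ± 3.02 CPM in ImCD8. Its log2 fold changes of 0.33 ± 0.11 and 0.34 ± 0.12 did not pass (edgeR adjusted p = 0.0657 and 0.0994). As a ratio of counts within a library, Slc2a1 to Slc2a3 was 0.303 to 0.371 in control and 0.606 to 0.839 in dKO ImCD4, and 0.406 to 0.477 in control and 1.82 to 2.04 in dKO ImCD8. The ratio was highest in the 3 dKO ImCD8 libraries. It takes no account of transcript length, and it shows unequal change and not which of the transcripts changed. Slc16a1 encodes MCT1, a lactate carrier that works in both directions, and averaged 86.9 ± 12.2 and 111 ± 16.3 CPM in control and dKO ImCD4 (log2 fold change 0.35 ± 0.12, edgeR adjusted p = 0.0609). In ImCD8 it averaged 141 ± 11.3 and 141 ± 10.6 CPM. Slc16a3, which encodes the lactate exporter MCT4, averaged 3.34 to 4.92 CPM in the 4 groups and passed in neither population.

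**Figure D3:**
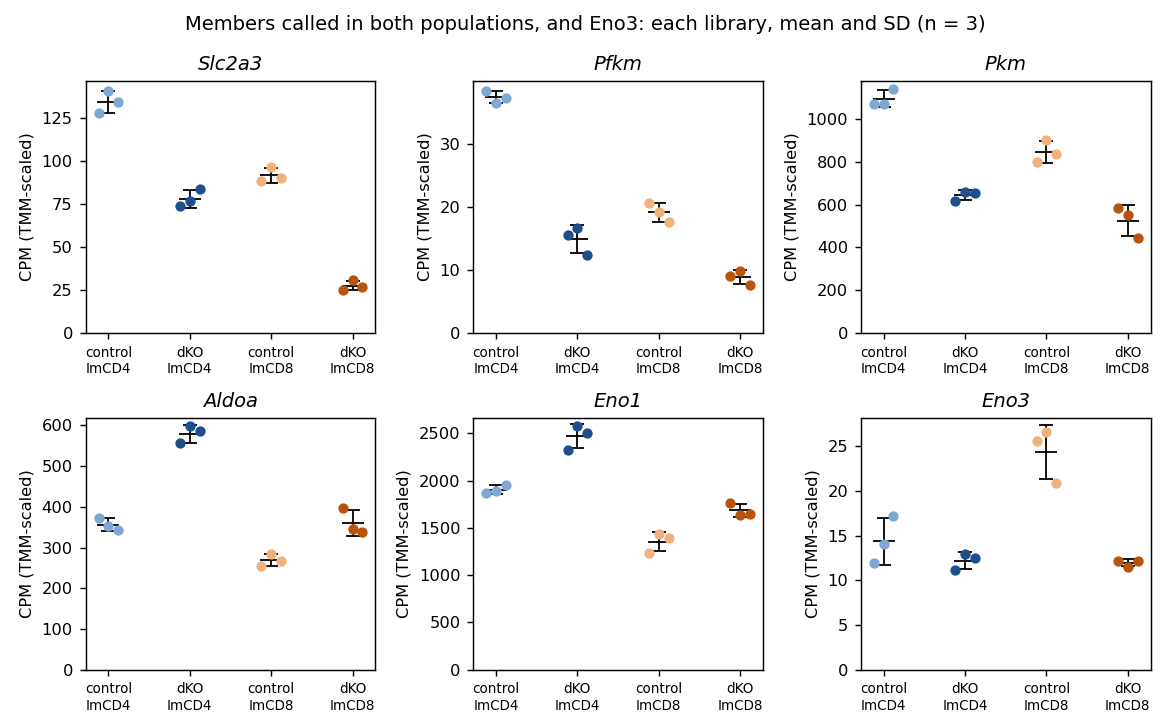
CPM of 6 genes in each library (points) with the mean and SD of 3 (lines). Slc2a3, Pfkm and Pkm are lower in dKO in both populations, Aldoa and Eno1 are higher, and Eno3 is highest in the 3 control ImCD8 libraries. Dots of dKO and control overlap in 1 panel, that of Eno3 in ImCD4.

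At the phosphofructokinase step the subunit genes moved apart. Pfkm, the muscle-type subunit (ENSMUSG00000033065.14, chromosome 15, 98092589 to 98132451, plus strand), stood at 38.4, 36.5 and 37.3 CPM in control and 15.5, 16.7 and 12.4 CPM in dKO ImCD4. In ImCD8 it stood at 20.6, 19.2 and 17.6 CPM in control and 9.02, 9.84 and 7.62 CPM in dKO. No dKO library reached the level of a control library of its population. Pfkm fell with log2 fold changes of -1.33 ± 0.13 and -1.11 ± 0.14 (edgeR adjusted p = 4.57e-06 and 0.000109). The 2 effects differed by 0.22 ± 0.19, which did not pass (edgeR adjusted p = 0.744).

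Pfkl, the liver-type subunit, stood at 65.8, 73.8 and 67.4 CPM in control and 88.3, 100.4 and 92.4 CPM in dKO ImCD4. All 3 dKO libraries were above the control libraries, and Pfkl rose by 0.44 ± 0.10 on the log2 scale (edgeR adjusted p = 0.00845). In ImCD8 the libraries overlapped at 76.9, 86.9 and 102 CPM in control and 84.8, 101 and 99.0 CPM in dKO. Its effect there was 0.10 ± 0.10 (edgeR adjusted p = 0.655), and the difference between populations of -0.34 ± 0.14 did not pass (edgeR adjusted p = 0.443). The platelet-type subunit gene Pfkp averaged 207 to 230 CPM in the 4 groups, with effects of 0.07 ± 0.08 and -0.10 ± 0.08 that did not pass. A stretch of 748 bases of Pfkp transcript is shared with the overlapping gene Pitrm1. No source used here gives the strand setting of the counting. Whether reads of that stretch were counted in either gene or set aside as ambiguous is thus not known. The ratio of Pfkl to Pfkm counts ran from 1.72 to 2.02 in control and 5.69 to 7.45 in dKO ImCD4, and from 3.73 to 5.77 in control and 9.41 to 13.0 in dKO ImCD8.

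The bifunctional enzymes of the Pfkfb family make and break the metabolite that activates phosphofructokinase. Pfkfb3 stood at 26.7, 31.2 and 31.6 CPM in control and 39.7, 40.1 and 41.9 CPM in dKO ImCD4, without overlap. It rose by 0.44 ± 0.10 (edgeR adjusted p = 0.00586), while in ImCD8 it stood at 31.7, 36.6 and 30.9 CPM in control and 33.3, 32.3 and 31.3 CPM in dKO, with an effect of -0.03 ± 0.10. The difference between populations, -0.47 ± 0.14, did not pass (edgeR adjusted p = 0.187). Pfkfb2 and Pfkfb4 were expressed at 5.72 to 15.5 CPM and 6.19 to 10.9 CPM in the group means and did not pass in either dKO contrast.

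Aldolase splits the phosphorylated sugar into triose phosphates, and its main gene here, Aldoa, rose in both populations. Aldoa (chromosome 7, 126795234 to 126800751, minus strand, as ENSMUSG00000030695.16; the GENCODE vM21 annotation holds a second gene of that symbol) stood at 373, 352 and 344 CPM in control and 555, 598 and 585 CPM in dKO ImCD4. In ImCD8 it stood at 255, 284 and 266 CPM in control and 397, 346 and 339 CPM in dKO. Each dKO library was above every control library of its population. The log2 fold changes were 0.70 ± 0.07 and 0.43 ± 0.07 (edgeR adjusted p = 1.35e-05 and 0.00201). They differed by -0.27 ± 0.10, which did not pass (edgeR adjusted p = 0.373). Aldoc had 72 counts in all 12 libraries together and passed in none of the comparisons with all 12 libraries. It passed in ImCD8 against ImCD4 in control without control ImCD4 replicate 2 (edgeR adjusted p = 0.0446, and up to 0.482 in the other alternatives).

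Gpi1 encodes glucose phosphate isomerase, the enzyme between hexokinase and phosphofructokinase. It stood at 162, 156 and 166 CPM in control and 186, 188 and 211 CPM in dKO ImCD4. The groups did not overlap and Gpi1 rose by 0.28 ± 0.07 (edgeR adjusted p = 0.0166). The call was lost without control ImCD4 replicate 1 or 2, without dKO ImCD4 replicate 3 and without the 4 replicate 3 libraries (adjusted p of up to 0.0709). In ImCD8 Gpi1 stood at 149, 152 and 153 CPM in control and 175, 155 and 159 CPM in dKO, with an effect of 0.11 ± 0.07 (edgeR adjusted p = 0.468). The hexokinase gene Hk1 averaged 258 to 287 CPM in the 4 groups, Hk2 2.41 to 4.82 CPM, and the triose phosphate isomerase gene Tpi1 34.8 to 52.8 CPM. None of these 3 passed in a dKO contrast. The largest of their effects, 0.59 ± 0.25 for Hk2 in ImCD4, had an edgeR adjusted p of 0.132.

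In lower glycolysis, neighbouring enzymes moved in opposite directions. Eno1, the ubiquitous enolase (ENSMUSG00000063524.13, chromosome 4, 150236721 to 150248879, plus strand), stood at 1865, 1889 and 1954 CPM in control and 2326, 2573 and 2506 CPM in dKO ImCD4. In ImCD8 it stood at 1239, 1431 and 1392 CPM in control and 1767, 1637 and 1648 CPM in dKO. The groups did not overlap in either population, and Eno1 rose by 0.38 ± 0.07 and 0.31 ± 0.07 (edgeR adjusted p = 0.00257 and 0.014). In ImCD8 the call was lost without control ImCD8 replicate 1, without dKO ImCD8 replicate 1 and with only the 6 ImCD8 libraries (adjusted p of up to 0.0878). Eno1b, a near-identical copy of Eno1 over 1736 bases, had 1078 counts in all libraries beside 208273 for Eno1, and reads with more than 1 alignment were not counted in genes.

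Pkm encodes pyruvate kinase, the last step of glycolysis (ENSMUSG00000032294.17, chromosome 9, 59656368 to 59679375, plus strand). It stood at 1072, 1072 and 1143 CPM in control and 617, 657 and 657 CPM in dKO ImCD4. In ImCD8 it stood at 801, 901 and 837 CPM in control and 582, 552 and 443 CPM in dKO. No dKO library reached a control library of its population, and Pkm fell with log2 fold changes of -0.77 ± 0.09 and -0.69 ± 0.09 (edgeR adjusted p = 3.16e-05 and 0.000136). The difference between these effects was 0.08 ± 0.12 (edgeR adjusted p = 0.877). The ratio of Pkm to Eno1 counts was 0.568 to 0.585 in control and 0.255 to 0.265 in dKO ImCD4, and 0.601 to 0.647 in control and 0.269 to 0.337 in dKO ImCD8. The counts are per gene, so that the muscle-type and growth-type splice forms of Pkm were not told apart.

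Eno3, the muscle-type enolase, stood at 25.5, 26.6 and 20.9 CPM in control and 12.2, 11.5 and 12.2 CPM in dKO ImCD8. The control libraries were the highest of all 12, and Eno3 fell with a log2 fold change of -1.03 ± 0.15 (edgeR adjusted p = 0.000336). In ImCD4 the groups overlapped at 11.9, 14.0 and 17.2 CPM in control and 11.2, 12.9 and 12.5 CPM in dKO, with an effect of -0.24 ± 0.15 (edgeR adjusted p = 0.32). The difference between populations of -0.79 ± 0.21 did not pass with all 12 libraries (edgeR adjusted p = 0.147). Without the 4 replicate 3 libraries it was -1.03 and passed (edgeR adjusted p = 0.0383).

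Gapdh, common as a reference gene, stood at 738, 781 and 739 CPM in control and 694, 566 and 556 CPM in dKO ImCD8. The groups did not overlap, and Gapdh fell with a log2 fold change of -0.31 ± 0.08 (edgeR adjusted p = 0.0338). The call was lost in 8 of 19 alternatives, with an adjusted p of up to 0.123: without control ImCD4 replicate 2, without any 1 of the control ImCD8 libraries, without dKO ImCD8 replicate 2 or 3, without the 4 replicate 3 libraries and with only the 6 ImCD8 libraries. In ImCD4 it stood at 823, 754 and 725 CPM in control and 669, 627 and 657 CPM in dKO, also without overlap. The effect there, -0.24 ± 0.08, did not pass (edgeR adjusted p = 0.0727). Gapdh shares at least 300 bases at 95% identity or more with 77 other annotated genes, so reads from it may have been set aside as aligning more than once.

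Pgk1 encodes phosphoglycerate kinase, the first step of glycolysis that yields ATP. It stood at 146, 138 and 139 CPM in control and 176, 189 and 199.6 CPM in dKO ImCD4, without overlap, and rose by 0.42 ± 0.08 (edgeR adjusted p = 0.00191). In ImCD8 the groups overlapped at 149, 157 and 133 CPM in control and 173, 155 and 156 CPM in dKO, with an effect of 0.14 ± 0.08. The difference between populations was -0.28 ± 0.11 (edgeR adjusted p = 0.4). The phosphoglycerate mutase gene Pgam1 averaged 74.3 ± 4.81 and 86.8 ± 4.07 CPM in control and dKO ImCD4, with an effect of 0.22 ± 0.08 that did not pass (edgeR adjusted p = 0.0678). Pgk1 shares 1255 bases at 100% identity with Pgk1-rs7, which had 190 counts in all libraries beside 17732 for Pgk1. Pgam1 shares 765 bases at 100% identity with Pgam1-ps2, which had 351 counts beside 9253 for Pgam1.

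The gene of the lactate-forming subunit, Ldha, rose in ImCD4. It stood at 1056, 1056 and 1161 CPM in control and 1327, 1397 and 1496 CPM in dKO, without overlap, and the log2 fold change was 0.37 ± 0.07 (edgeR adjusted p = 0.00302). In ImCD8 it stood at 1040.5, 1174 and 1138 CPM in control and 1234, 1187 and 1242 CPM in dKO, also without overlap, and the effect of 0.13 ± 0.07 did not pass (edgeR adjusted p = 0.366). The difference between populations was -0.24 ± 0.10 (edgeR adjusted p = 0.45). Ldhb, whose subunit favours the conversion of lactate to pyruvate, had effects of -0.17 ± 0.23 and -0.09 ± 0.25 that did not pass.

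Of the 6 genes of pyruvate entry 1 passed, Pdha1, which encodes the catalytic alpha subunit of pyruvate dehydrogenase. It stood at 138, 159.7 and 125 CPM in control and 168, 187 and 165 CPM in dKO ImCD4. The groups did not overlap, the log2 fold change was 0.30 ± 0.08 and the edgeR adjusted p was 0.0281. The call was lost without control ImCD4 replicate 1 or 3, without dKO ImCD4 replicate 2, without the 4 replicate 3 libraries and with only the 6 ImCD4 libraries (adjusted p of up to 0.131). In ImCD8 Pdha1 stood at 113, 122 and 119 CPM in control and 139, 132 and 133 CPM in dKO, and the effect of 0.19 ± 0.09 did not pass (edgeR adjusted p = 0.229). Pdha1 shares 426 bases at 100% identity with Map3k15, which had 108 counts in all libraries beside 15855 for Pdha1. The beta subunit gene Pdhb averaged 150.2 to 160.0 CPM in the 4 groups, and Dlat, which encodes the acetyltransferase of the same complex, 63.7 to 73.2 CPM. The genes of the mitochondrial pyruvate carrier, Mpc1 and Mpc2, averaged 14.2 to 16.2 CPM and 73.0 to 85.3 CPM. Pdk1, a kinase that inactivates the complex, averaged 215 ± 45.1 and 193 ± 44.2 CPM in control and dKO ImCD4, and 320.4 ± 28.3 and 359.9 ± 42.7 CPM in ImCD8. Effects on these 5 genes ran from -0.16 to 0.17 on the log2 scale and did not pass in either population.

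Of the 4 pentose phosphate genes 1 passed. G6pdx encodes glucose 6-phosphate dehydrogenase, which commits glucose to the pathway. It stood at 44.0, 52.0 and 44.0 CPM in control and 57.5, 60.6 and 57.0 CPM in dKO ImCD4, without overlap, and rose by 0.32 ± 0.08 (edgeR adjusted p = 0.0197). The call was lost without control ImCD4 replicate 1 or 3, without dKO ImCD4 replicate 2 and without the 4 replicate 3 libraries (adjusted p of up to 0.0900). In ImCD8 the groups overlapped at 56.7, 61.6 and 53.6 CPM in control and 57.3, 60.2 and 56.9 CPM in dKO, with an effect of 0.02 ± 0.08. Effects on Pgd, the second dehydrogenase of the pathway, were 0.10 ± 0.07 in ImCD4 and -0.0044 ± 0.07 in ImCD8. Effects on Taldo1, the transaldolase gene, were 0.14 ± 0.07 and 0.12 ± 0.07, and those on Tkt, the transketolase gene, 0.33 ± 0.12 and 0.03 ± 0.12. These did not pass, and Tkt in ImCD4, with libraries at 121, 132 and 98.3 CPM in control and 139.7, 167 and 136 CPM in dKO, had an edgeR adjusted p of 0.0948.

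**Figure D4:**
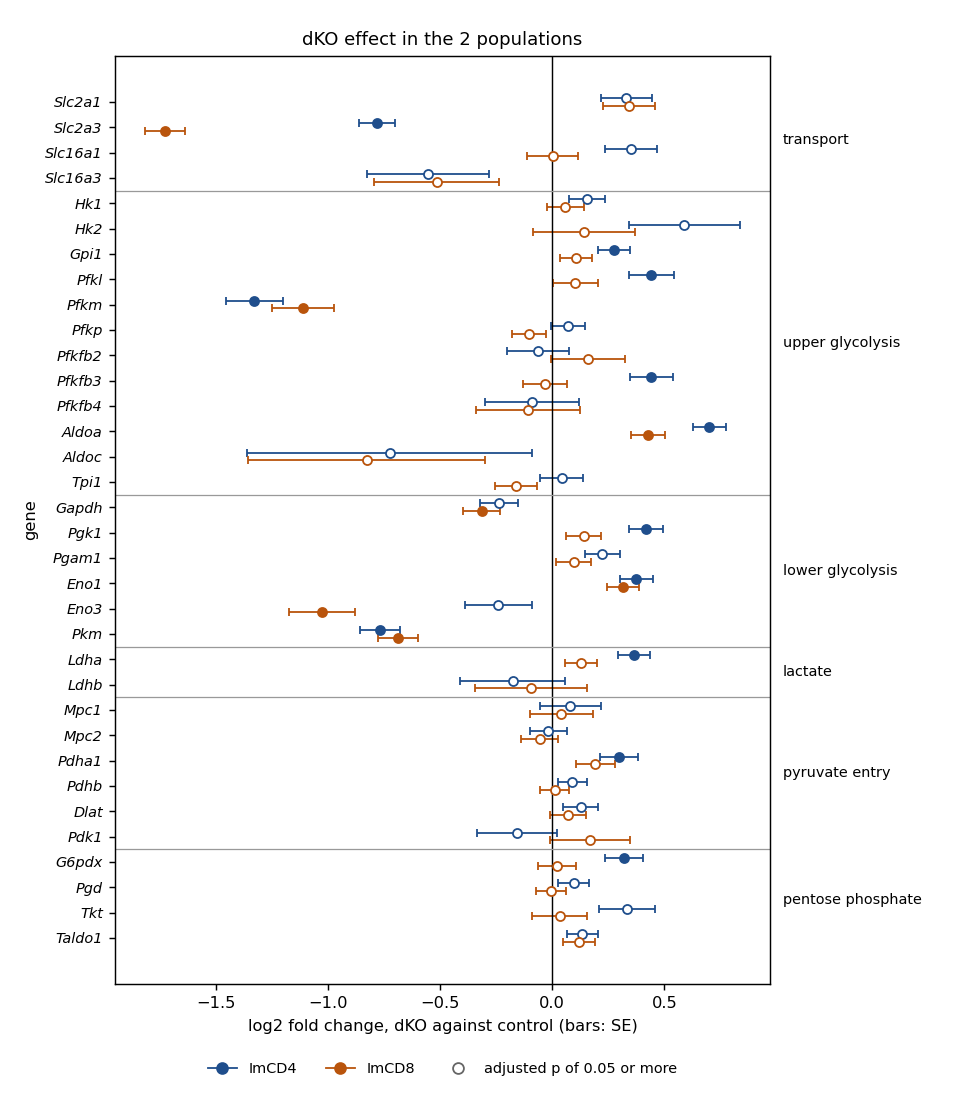
Log2 fold change of dKO against control for each gene in ImCD4 (blue) and ImCD8 (orange), with SE. Filled points have an edgeR adjusted p below 0.05. Slc2a3, Pfkm and Pkm lie left of 0 and Aldoa and Eno1 right of 0 in both populations, and the points of Slc2a3 lie farthest apart among the called genes.

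The libraries of dKO and control did not overlap for 19 of the 34 genes in ImCD4, where 33.8% of all tested genes did not overlap, and for 13 of the 34 in ImCD8, where 21.8% did not. Counts of genes called in 1 population and not in the other do not show that the effects differ, since Slc2a3 was the single gene of the 34 to pass that test. Replicate 3 was the lowest library of its group in all 4 groups for Ldhb, Pdk1, G6pdx, Tkt and Slc16a1, 5 of the 34 genes, beside 8.12% of all tested genes. It was the highest in all 4 groups for Tpi1 and Pgam1, beside 7.17% of all tested genes.

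Between the populations, the pathway differed gene by gene in control mice. Of the 34 genes, 18 passed in control ImCD8 against control ImCD4, 9 higher and 9 lower, where 45.3% of all tested genes passed, 23.1% higher and 22.1% lower. The share among the 34 was near the background. With scaling by library size alone, 2675 genes over the whole table were higher and 3546 lower, in place of 3097 and 2961. In dKO, 18 also passed, 5 higher and 13 lower, beside 43.7% of all tested genes, 22.1% higher and 21.6% lower. The libraries did not overlap for 21 of the 34 genes in control, beside 56.4% of all tested genes, and for 20 of the 34 in dKO, beside 51.8%. In the dKO contrast between populations, library size alone moved the whole table from 2960 higher and 2893 lower to 2548 and 3435. All 18 cell cycle markers were higher in ImCD8 than in ImCD4, with a median log2 fold change of 2.37 in control and 1.66 in dKO, and their part in these differences was not tested.

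The largest difference among the genes called in control was that of Ldhb. It stood at 297, 309 and 251 CPM in control ImCD4 and 80.0, 107 and 56.5 CPM in control ImCD8. In dKO it stood at 254, 289 and 217 CPM in ImCD4 and 90.9, 83.2 and 52.6 CPM in ImCD8. No ImCD8 library reached an ImCD4 library, and replicate 3 was the lowest of each group. The log2 fold changes of ImCD8 against ImCD4 were -1.82 ± 0.25 in control and -1.74 ± 0.25 in dKO (edgeR adjusted p = 0.000189 and 0.000269). The ratio of Ldha to Ldhb counts was 3.41 to 4.63 in control ImCD4 and 11.0 to 20.2 in control ImCD8, and 4.84 to 6.90 and 13.6 to 23.6 in dKO. Gm5514, a copy of Ldhb at 98.0% identity over 1002 bases, had 555 counts in all libraries.

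Pfkfb2 stood at 14.0, 16.6 and 15.9 CPM in control ImCD4 and 6.16, 5.77 and 5.21 CPM in control ImCD8, and at 16.1, 14.7 and 13.7 and 6.73, 6.90 and 5.46 CPM in dKO. It was lower in every ImCD8 library than in any ImCD4 library, with log2 fold changes of -1.44 ± 0.15 in control and -1.22 ± 0.15 in dKO (edgeR adjusted p = 1.52e-06 and 7.44e-06). Pfkfb4 was also lower, with log2 fold changes of -0.70 ± 0.22 and -0.71 ± 0.22, and its calls were lost without control ImCD4 replicate 2 or control ImCD8 replicate 3 and, in dKO, without replicate 1 of either population (adjusted p of up to 0.101 and 0.0970). Pfkm, whose values are given above, was lower in ImCD8 with log2 fold changes of -0.97 ± 0.13 in control and -0.75 ± 0.14 in dKO (edgeR adjusted p = 1.23e-05 and 0.000425).

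Slc2a3 was lower in ImCD8 with log2 fold changes of -0.55 ± 0.08 in control and -1.49 ± 0.09 in dKO (edgeR adjusted p = 3.92e-05 and 1.71e-09). Its gap between populations was wider in dKO by the difference of -0.94 ± 0.12 tested above. Eno3 was higher in control ImCD8 by 0.76 ± 0.14 (edgeR adjusted p = 0.000485), and in dKO its levels overlapped, with a log2 fold change of -0.03 ± 0.15.

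Among the genes higher in ImCD8, Tkt stood at 121, 132 and 98.3 CPM in control ImCD4 and 211, 260.2 and 204 CPM in control ImCD8. It was higher in each ImCD8 library, by 0.94 ± 0.12 in control and 0.64 ± 0.12 in dKO (edgeR adjusted p = 2.84e-05 and 0.000745). Pgd was higher in both genotypes as well, by 0.37 ± 0.07 and 0.27 ± 0.07, whereas G6pdx passed in control alone, where it was higher by 0.29 ± 0.09 (edgeR adjusted p = 0.0109, and up to 0.0543 without control ImCD4 replicate 1, without control ImCD8 replicate 2 or with library size alone). Pdk1 stood at 227, 253 and 165 CPM in control ImCD4 and 323, 347 and 291 CPM in control ImCD8, and at 187, 239.9 and 152 and 358, 404 and 318 CPM in dKO. It was higher by 0.57 ± 0.18 in control and 0.90 ± 0.18 in dKO (edgeR adjusted p = 0.0208 and 0.00167). The call in control was lost without a filter, without control ImCD4 replicate 3 and without control ImCD8 replicate 1 or 2 (adjusted p of up to 0.102).

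Hk2, at 2.23 to 2.54 CPM in control ImCD4 and 5.49, 2.96 and 4.57 CPM in control ImCD8, was higher by 0.86 ± 0.25 (edgeR adjusted p = 0.0097). That call was lost without control ImCD8 replicate 1 and without the 4 replicate 3 libraries (adjusted p of up to 0.0712). Tpi1 was higher in ImCD8 by 0.60 ± 0.10 and 0.40 ± 0.10 and Slc16a1 by 0.70 ± 0.12 and 0.35 ± 0.12 in control and dKO. The Slc16a1 call in dKO was lost without dKO ImCD4 replicate 3, without dKO ImCD8 replicate 1 or 2 and with library size alone (adjusted p of up to 0.0944). Aldoa and Eno1, both higher in dKO within each population, were lower in ImCD8 than in ImCD4, with log2 fold changes in control and dKO of -0.41 ± 0.07 and -0.68 ± 0.07 for Aldoa and of -0.49 ± 0.07 and -0.55 ± 0.07 for Eno1.

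**Figure D5:**
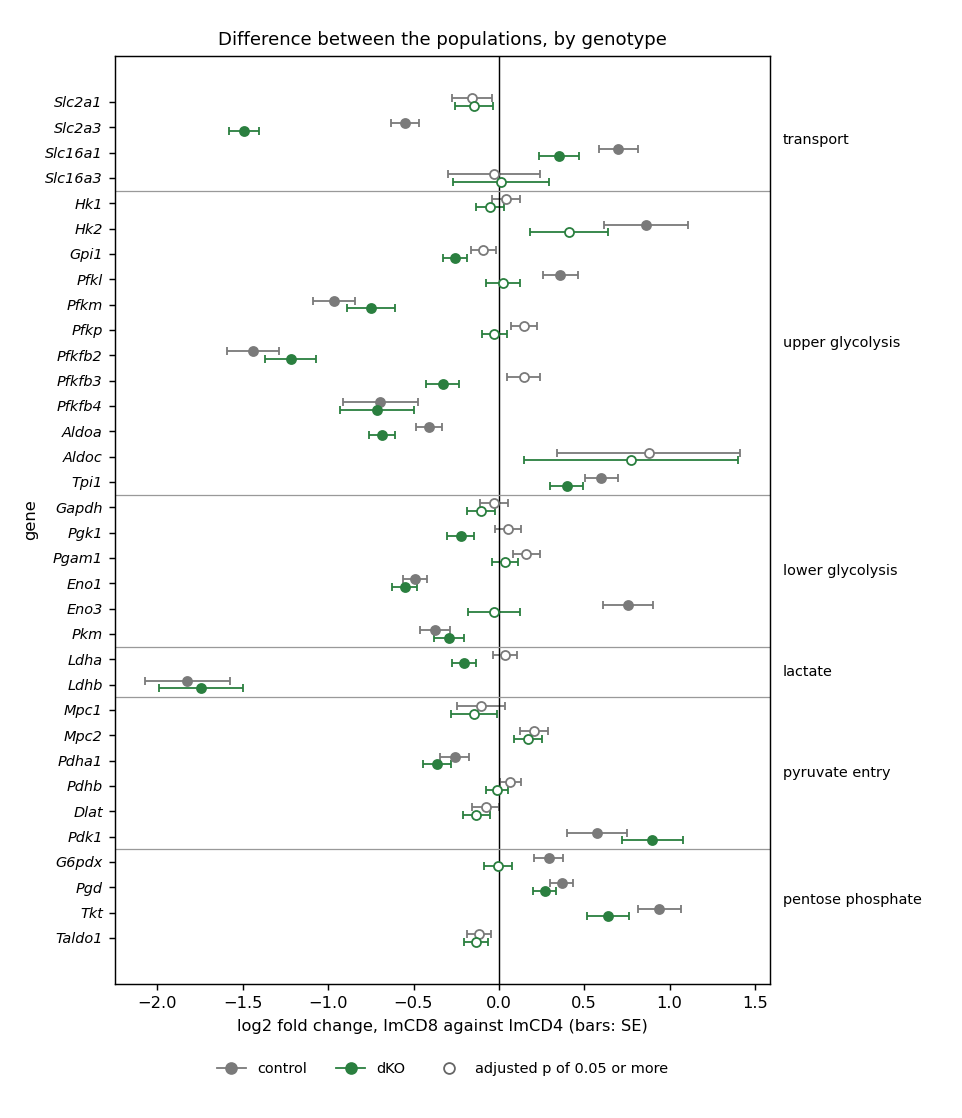
Log2 fold change of ImCD8 against ImCD4 for each gene in control (grey) and dKO (green), with SE. Filled points have an edgeR adjusted p below 0.05. Ldhb, Pfkfb2 and Pfkm lie left of 0 and Tkt, Pdk1, Tpi1 and Pgd right of 0 in both genotypes, and Slc2a3 lies farther left in dKO.

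A further 61 genes of the same and adjoining pathways were listed for comparison, among them other isozymes, glycogen-side and gluconeogenic enzymes, redox shuttles and accessory proteins, and 42 of them were tested. In ImCD4, 2 rose and 5 fell, and in ImCD8 1 rose and 3 fell, 16.7% and 9.52% called beside 13.4% and 6.14% of all tested genes. Eno2, the neuronal enolase, stood at 12.4, 10.3 and 11.2 CPM in control and 3.93, 3.54 and 3.96 CPM in dKO ImCD4, and at 4.03, 2.96 and 2.98 and 0.635, 1.10 and 0.682 CPM in ImCD8. No dKO library reached a control library of its population, and Eno2 fell with log2 fold changes of -1.56 ± 0.19 and -1.99 ± 0.28 (edgeR adjusted p = 6.44e-05 and 0.000294). Prps2, which makes the activated ribose phosphate used for nucleotides, stood at 156, 157 and 181 CPM in control and 98.1, 103 and 104 CPM in dKO ImCD4, and at 172, 169 and 167 and 134, 118 and 133 CPM in ImCD8. It fell by 0.69 ± 0.07 and 0.40 ± 0.07 (edgeR adjusted p = 1.69e-05 and 0.00347), again without overlap.

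Rpia, the ribose phosphate isomerase gene, averaged 7.29 ± 0.934 and 3.66 ± 0.846 CPM in ImCD4 and 5.02 ± 1.48 and 2.34 ± 0.590 CPM in ImCD8 in control and dKO, with log2 fold changes of -0.99 ± 0.25 and -1.09 ± 0.28 (edgeR adjusted p = 0.0144 and 0.0251). Its calls were lost without control ImCD4 replicate 1 or dKO ImCD4 replicate 2, and in ImCD8 without control replicate 1, without dKO replicate 1 or 2 and with only the 6 libraries (adjusted p of up to 0.0777 and 0.152). In ImCD4 Pcx, the pyruvate carboxylase gene, fell by 1.22 ± 0.26 (edgeR adjusted p = 0.00546, and 0.0553 without the 4 replicate 3 libraries) and the malate dehydrogenase gene Mdh2 by 0.24 ± 0.06. Bsg, which encodes the chaperone of the lactate carriers, rose by 0.32 ± 0.06 (edgeR adjusted p = 0.00357), and the phosphoglycolate phosphatase gene Pgp by 0.42 ± 0.11. In ImCD8 the glycerol phosphate dehydrogenase gene Gpd2 rose by 0.38 ± 0.09. The Mdh2 call was lost without control ImCD4 replicate 1 or 2, dKO ImCD4 replicate 1 or the 4 replicate 3 libraries, and the Pgp call without control ImCD4 replicate 1 or 2 or dKO ImCD4 replicate 3. The Gpd2 call was lost without control ImCD8 replicate 1 or 3, dKO ImCD8 replicate 1 or 2 and with only the 6 ImCD8 libraries. The adjusted p reached 0.0841, 0.0817 and 0.0831 for these 3 genes.

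Of 25 regulators of glycolysis listed for comparison 24 were tested, and 6 passed in ImCD4, 25.0% beside 13.4% of all tested genes, and 2 in ImCD8, 8.33% beside 6.14%. Arnt encodes the partner of the hypoxia-inducible factor HIF-1 alpha. It stood at 112, 103 and 106 CPM in control and 79.3, 82.4 and 67.3 CPM in dKO ImCD4, and at 96.6, 102 and 102 and 65.7, 68.1 and 56.2 CPM in ImCD8. The groups did not overlap, and Arnt fell by 0.49 ± 0.09 and 0.66 ± 0.09 (edgeR adjusted p = 0.00162 and 0.000208). Egln2, a prolyl hydroxylase that marks HIF alpha subunits for degradation, fell by 0.36 ± 0.08 and 0.54 ± 0.09 (edgeR adjusted p = 0.0104 and 0.00105), and the ImCD4 call was lost without the 4 replicate 3 libraries (adjusted p = 0.0722). Hif1an, which encodes the asparaginyl hydroxylase that inhibits HIF, fell by 0.32 ± 0.07 in ImCD4 (edgeR adjusted p = 0.00478).

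Myc, which drives many glycolysis genes in activated T cells, stood at 101, 109.6 and 116 CPM in control and 165, 181 and 201 CPM in dKO ImCD4. It rose there by 0.74 ± 0.17 (edgeR adjusted p = 0.0138), and the call was lost without control ImCD4 replicate 1 or dKO ImCD4 replicate 3 (adjusted p of up to 0.0581). In ImCD8 the groups overlapped at 188, 211 and 259 CPM in control and 220.5, 219 and 341 CPM in dKO, and the effect of 0.25 ± 0.17 did not pass (edgeR adjusted p = 0.487). The kinase gene Akt1 rose by 0.29 ± 0.07 and Hif1a by 0.25 ± 0.08 in ImCD4. Their calls were lost in 2 and 7 of 19 alternatives (adjusted p of up to 0.0777 and 0.172), for Akt1 without control ImCD4 replicate 3 or dKO ImCD4 replicate 2, and for Hif1a without any 1 of the control ImCD4 libraries, without dKO ImCD4 replicate 1 or 2, with library size alone and with the stricter filter.

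Of 18 genes known to be induced in hypoxia 15 were tested, and 2 rose and 2 fell in ImCD4, 26.7% beside 13.4% of all tested genes. In ImCD8 1 rose and 2 fell, 20% beside 6.14%. Egln3 is on this list and also among the regulators above. Ero1l, an oxidase of the endoplasmic reticulum, rose by 0.49 ± 0.08 and 0.34 ± 0.08, and the ImCD8 call was lost in 5 of 19 alternatives, 4 of them without single ImCD8 libraries (control replicates 1 and 2, dKO replicates 2 and 3), with an adjusted p of up to 0.0630. Kdm3a, a histone demethylase gene, fell by 0.39 ± 0.08 and 0.38 ± 0.09, and its calls were lost without the 4 replicate 3 libraries in ImCD4 (adjusted p = 0.0519) and without control ImCD8 replicate 1 in ImCD8 (adjusted p = 0.0636). Bnip3l, a mitophagy receptor gene, fell by 0.30 ± 0.08 and 0.29 ± 0.08, with calls lost in 3 alternatives in ImCD4 (without control replicate 1 or 2 or dKO replicate 3) and 8 in ImCD8, and an adjusted p of up to 0.0779 and 0.144. In ImCD8 the 8 were those without control ImCD4 replicate 1, any 1 of the control ImCD8 libraries, dKO ImCD8 replicate 2 or 3 or the 4 replicate 3 libraries, and with only the 6 ImCD8 libraries. Ndrg1 rose by 0.47 ± 0.11 in ImCD4 (adjusted p = 0.0510 without control ImCD4 replicate 1). Members of this list thus moved both ways, as did the 34 genes.

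The 250 bases before the RefSeq transcription starts were read for the 5 genes that passed in the same direction in both populations. Of these, Slc2a3, Pfkm and Pkm fell and Aldoa and Eno1 rose. The RefSeq table on GRCm38.p6, the assembly of mm10, holds windows for 33 of the 34 genes and for 4 of these 5: Pkm has 2 starts, Pfkm 4, Eno1 3 and Aldoa 3. 1 window of each is printed, 5′ to 3′ on the strand of the gene. Capitals mark the letters CCCTCCCC or GGGTGGGG on either strand, short GC-rich motifs of the kind that Zfp148 and Zfp281 are known to bind. The windows of Pkm, Pfkm and Eno1 were chosen because they hold a match, after the matches were seen.
Pkm, start 2, chr9:59656977-59657226, plus strand: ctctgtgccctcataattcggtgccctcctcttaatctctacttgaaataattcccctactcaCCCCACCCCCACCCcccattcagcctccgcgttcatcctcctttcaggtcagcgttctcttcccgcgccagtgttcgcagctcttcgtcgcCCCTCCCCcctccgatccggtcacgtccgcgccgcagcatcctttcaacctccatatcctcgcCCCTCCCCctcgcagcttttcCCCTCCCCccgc
Pfkm, start 3, chr15:98108306-98108555, plus strand: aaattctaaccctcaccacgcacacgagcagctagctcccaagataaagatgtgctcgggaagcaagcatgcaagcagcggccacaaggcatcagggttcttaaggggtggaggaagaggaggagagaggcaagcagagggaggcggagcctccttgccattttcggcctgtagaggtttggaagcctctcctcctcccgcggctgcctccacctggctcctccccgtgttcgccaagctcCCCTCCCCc
Eno1, start 1, chr4:150236458-150236707, plus strand: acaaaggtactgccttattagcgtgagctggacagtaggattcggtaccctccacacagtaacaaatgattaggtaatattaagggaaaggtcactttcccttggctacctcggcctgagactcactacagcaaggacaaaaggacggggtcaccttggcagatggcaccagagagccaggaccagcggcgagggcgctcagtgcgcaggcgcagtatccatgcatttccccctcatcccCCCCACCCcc
Aldoa, start 2, chr7:126799255-126799504, minus strand: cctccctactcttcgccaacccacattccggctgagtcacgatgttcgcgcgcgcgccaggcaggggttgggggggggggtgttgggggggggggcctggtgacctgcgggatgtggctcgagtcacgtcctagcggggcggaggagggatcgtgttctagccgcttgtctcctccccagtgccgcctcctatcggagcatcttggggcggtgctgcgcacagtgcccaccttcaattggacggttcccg

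The Pkm window held CCCTCCCC 3 times and, on the other strand, 2 overlapping matches to GGGTGGGG. The Pfkm window held CCCTCCCC 1 time, the Eno1 window GGGTGGGG 1 time on the other strand, and no window of Aldoa held either. CCCTCCCC was found on either strand in 6 of the 50 windows of the 33 genes, 12% beside 9.69% of all 32851 windows in the table, and GGGTGGGG in 4 of 50, 8% beside 9.05%. Either motif was found in 8 of 50, 16% beside 17% of all windows. ACGTG, the core of the hypoxia response element, was found in 17 of 50 windows, 34% beside 16.6% of all windows, and CACGTG, the E-box bound by Myc, which contains ACGTG, in 5 of 50, 10% beside 6.02%. Windows of 1 gene can overlap, and a match is a description of these letters and not of a bound site.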

How the data were processed

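RNA of 12 libraries was isolated with a micro column kit and amplified with a low-input SMARTer kit, per the labels' protocols. The submitters' processing notes name cutadapt 1.18, HTSeq, STAR 2.6.1 and mm10, and the values that the authors deposited are raw counts per gene symbol. Annotation and strand setting: not given in the sources used here. The 5 summary tallies (10.5% to 16.4% of reads in no gene) stayed out.

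In R 4.3.3, edgeR 4.0.16 kept genes by filterByExpr (minimum count 10, total 15), scaled libraries by TMM and fitted 1 robust quasi-likelihood model of 4 group means (8 residual degrees of freedom). Tests were two-sided, with Benjamini-Hochberg adjustment over 13383 genes and a threshold of 0.05. The procedure was tested on simulated data. Levels are CPM, counts over the TMM-scaled library size. Exact permutation of 3 against 3 libraries cannot go below p = 0.1 and was not used for calls. Positions and exon lengths are from GENCODE vM21, and near-identical copies were sought by BLAST of its transcripts (at least 300 bases at 95% identity).

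The members and all lists were chosen with earlier results of these data known. For 2 marker lists, double-positive thymocyte and B cell, 1 marker each is not reported here and sums are over the other 4. Named in full are members that passed a dKO contrast and, between populations, the 6 largest differences. No library repeats another: in each group, pairs differed beyond counting noise (lowest chi-square per degree of freedom 3.68). Alternatives were RLE factors, library size alone, DESeq2 1.42.0, no filter, over 5 CPM in 3 libraries, only the 6 libraries compared, no replicate 3 libraries, and each library left out.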

Additional observations from a re-analysis of the deposited data

Results flagged for a closer look

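The dKO effect on Slc2a3, the GLUT3 gene, differed between the populations by a test of the difference itself. The log2 fold change in ImCD8 minus that in ImCD4 was -0.94 ± 0.12 (SE, edgeR adjusted p = 0.00143), from -0.78 ± 0.08 in ImCD4 and -1.73 ± 0.09 in ImCD8. All 3 dKO libraries were below all 3 control libraries in each population, and the difference passed in each of the 18 alternatives that could give it. In ImCD8 the direction rests on titles that are opposite to the genotype labels. Groups of 3 were too small for a test of outlying libraries.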

How the results depend on the processing

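Of 19 alternatives, each kept the direction of every member called with or without the change. Calls held in all of them for 9 of 12 members in ImCD4, 5 of 7 in ImCD8, 12 of 18 between populations in control and 11 of 18 in dKO. In control these lost calls were Hk2, Pfkl, Pdha1, Pdk1, Pfkfb4 and G6pdx (adjusted p of up to 0.144), and in dKO Gpi1, Pgk1, Pkm, Ldha, Pfkfb3, Pfkfb4 and Slc16a1 (up to 0.149). Single libraries that ended calls not named above were, in control, replicate 3 of ImCD8 for Pfkl and replicate 2 of ImCD4 or 1 of ImCD8 for Pdha1, and in dKO, replicates 2 and 3 of ImCD4 for Pgk1 and Ldha, 2 and 3 of ImCD8 for Pgk1, 2 of ImCD8 for Ldha and 3 of ImCD8 for Pkm. Gpi1 and Pfkfb3 lost theirs without the 4 replicate 3 libraries. Slc2a1, Gapdh, Tkt and Slc16a1 passed in ImCD4 in some. In ImCD8 Slc2a1 passed without a filter (edgeR adjusted p = 0.0153). Between populations, Aldoc, Taldo1 and Mpc2 passed in control in some alternatives, and Gapdh and Taldo1 in dKO. Of values with no call under either setting, 111 changed sign. The causes were not tested.

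Without a filter, 1280 genes passed in ImCD8 (667 higher and 613 lower, in place of 350 and 472) and 233 in the difference of effects, where DESeq2 gave 139 and leaving out the 4 replicate 3 libraries 106, in place of 58. Members in the difference were 2 without those 4. Library size alone gave 757 higher and 853 lower genes in ImCD4, in place of 972 and 825, and moved the median of all genes by at most -0.07. With single libraries left out, genes called ran from 1055 (no dKO ImCD4 replicate 2; 1086 without control ImCD4 replicate 1) to 1953 in ImCD4, from 473 (no control ImCD8 replicate 1) to 883 in ImCD8, from 39 to 65 for the difference, from 5323 to 6239 between populations in control and from 4953 to 5867 in dKO. Members called ran from 9 to 13, 5 to 7, 1 to 1, 15 to 19 and 15 to 18.

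The labels do not pair libraries across groups, and no paired analysis was run. Replicates were numbered here by the running numbers in the titles, within each group. No term was fitted for the replicate 3 libraries, so their shift on the third principal component counts toward the spread within groups. The difference of effects could not be fitted with only 6 libraries. Aldoc and Hk2 did not reach the stricter filter. In each contrast Aldoc was tested in 16 alternatives, and Hk2 in 18, or 17 for the difference. Aldoc and Hk2, with 72 and 425 counts in all, are limited by depth.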
